A study of Rattus norvegicus with 15 samples.

Results

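The late and the early response to GDNF return were compared in cultured spermatogonial stem cells of the rat, the cells that maintain sperm production. The samples were chosen by title: 3 arrays at 8 h and 3 arrays at 2 h after GDNF was given back, 6 of the 15 arrays of the study. The cells had been expanded for 1 month in serum-free medium with GDNF. The 5 groups were a control kept with GDNF, 18 h without GDNF, and 18 h without GDNF followed by 2, 4 or 8 h with it, each with 3 arrays from independent cultures. Thus both groups compared had gone through the same 18 h without GDNF and differed in the length of its return. No culture kept without GDNF for the further 2 or 8 h is analysed here, so time in culture and time with GDNF cannot be told apart.

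GDNF binds the co-receptor GFRA1, and the complex activates the receptor tyrosine kinase RET, which signals through the RAS to ERK and PI3K to AKT pathways and SRC family kinases. GDNF is the main known growth factor for self-renewal of spermatogonial stem cells. Growth factors in general induce immediate early genes within minutes to hours without new protein synthesis. Many of these encode transcription factors or short-lived inhibitors, so a second set of transcripts follows while the first declines.

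Of 31099 probe sets 15856 were tested, standing for 9002 named genes. A gene is called higher or lower where the limma adjusted p (two-sided, Benjamini-Hochberg over all tested probe sets) was under 0.05. The arrays correlated at 0.9968 to 0.9973 within the 2 h group and 0.9963 to 0.997 within the 8 h group, and at 0.987 to 0.9891 between them. The number of arrays limits the precision, and the median residual SD was 0.102 in log2 units. Of 14 listed germ cell markers 7 were on the array, and 5 of these passed the low-value filter. The 5 were bright, with a mean log2 intensity of 11.257 ± 0.014 at 2 h and 11.285 ± 0.043 at 8 h (SD, n = 3). That mean leaves out the markers under the filter. The Leydig cell gene Star, the leukocyte gene Ptprc and the macrophage gene Cd68 had intensities of at most 5.179, 5.759 and 3.585 on any of the 15 arrays. Other markers read higher at 2 h and 8 h, the T cell gene Cd3e at 314.1 and 302.7 and the peritubular gene Acta2 at 95.39 and 102.7. Of 5 tested Sertoli cell markers Clu stood at 3326 and 3591 and Dhh at 15.58 and 16.78, with the others between. Fibroblast-type markers were present, and they differed between the groups as described with the S100 genes below. The probe set of Gfra1 was under the low-value filter, at an intensity of 10 ± 0.0603 at 2 h and 11.7 ± 0.902 at 8 h, so it was not tested.

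In all, 2559 genes (28.4%) differed between 8 h and 2 h, of which 1172 (13% of those tested) were higher at 8 h and 1387 (15.4%) lower. Among them 95 were higher and 22 lower by at least 2-fold, and 7 were higher and 2 lower by at least 4-fold, so the larger changes lay mostly on the side higher at 8 h. With values under 16 set to 16 the counts at 2-fold were 89 and 18. The 2 h and 8 h arrays did not overlap in 48.4% of all tested genes. The 15 largest rises and 15 largest falls were taken only among such genes, so their lack of overlap was set by the choice. The steepest falls were those of Egr2 and Fosb, immediate early transcription factor genes. The steepest rises were those of the calcium-binding protein gene S100a3, the fast muscle myosin gene Myh2 and the adhesion gene Fblim1.

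**Figure D1:**
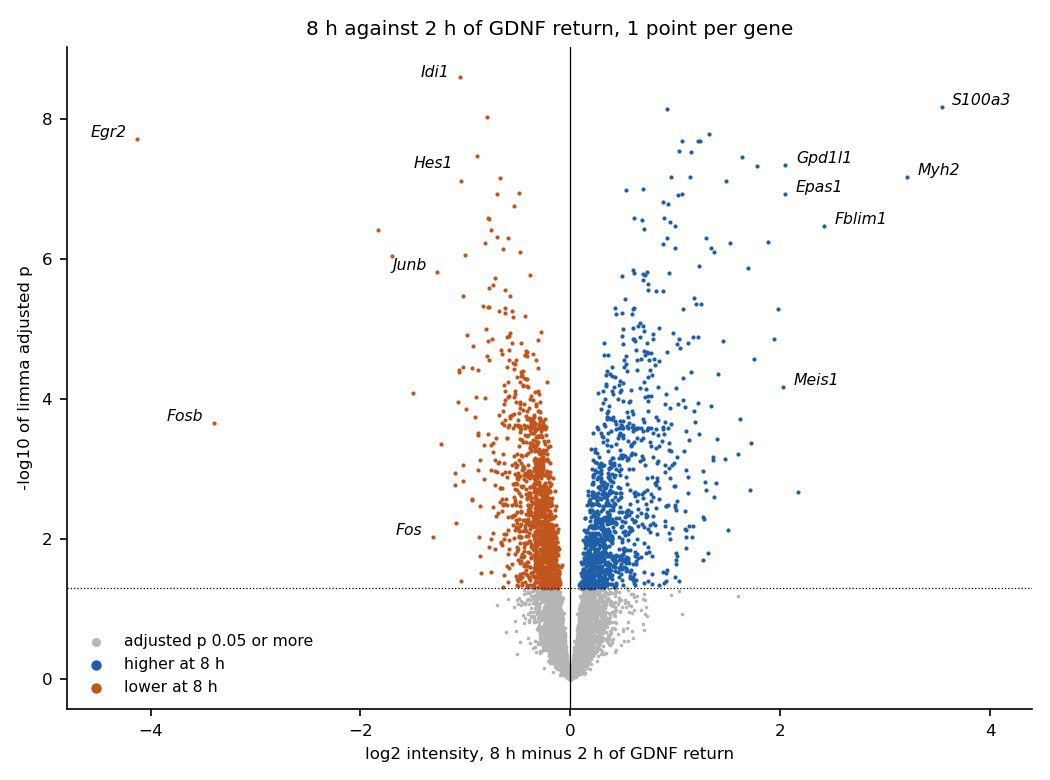
Change of each of 9002 genes from 2 h to 8 h of GDNF return (x axis, log2 intensity at 8 h minus 2 h) against the -log10 of its limma adjusted p (y axis). Blue points are the 1172 genes called higher and orange points the 1387 called lower at 8 h, and the dotted line marks an adjusted p of 0.05. Egr2 and Fosb stand far to the left, at -4.13 and -3.40, and S100a3 and Myh2 far to the right, at 3.54 and 3.21.

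Immediate early genes fell between 2 h and 8 h. Of 21 tested members of this list 13 were lower at 8 h and 2 were higher, against 15.4% and 13% of all genes, and the median log2 change was -0.52 against -0.01 over all genes. Egr2, a zinc-finger transcription factor gene, had intensities of 357.8, 320.3 and 313.1 at 2 h and of 20.27, 18.04 and 18.42 at 8 h. The groups lay far apart, and the 8 h arrays were back near the withdrawal mean of 13.2 ± 4.5 and the control mean of 16.23 ± 2.97. The fall was 17.5-fold, or -4.13 ± 0.23 in log2 units (SE, limma adjusted p = 1.92e-08), and 47.1% of it had been covered by 4 h. Fosb, a subunit gene of the AP-1 transcription factor, stood at 781.7, 632.3 and 624.1 at 2 h and at 117.2, 61.09 and 36.53 at 8 h. The groups did not overlap, although the 8 h arrays spread widely, and the fall was 10.6-fold (log2 change -3.40 ± 0.51 SE, limma adjusted p = 0.000221).

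The promoters of the immediate early genes are shown because 13 of the 21 members fell. The RefSeq promoter table of rat assembly GRCr8 gives 250 bases before and 50 after each gene start, 300 in all. Searched on both strands were the CArG box, the site that serum response factor binds, the cyclic AMP response element or CRE (TGACGTCA) and the AP-1 site (TGANTCA). Of the 13 immediate early genes lower at 8 h, 11 had a promoter in the table, and 5 of these (45.5%) held a CArG box, namely Egr1, Egr2, Klf6, Srf and Zfp36. Of all 27457 promoters 1.64% held one. A CRE stood in 3 of the 11 (27.3%), Ier2, Jund and Maff, against 1.91% of all promoters, and an AP-1 site in 0, against 7.33%. Of the other tested immediate early genes 4 had a promoter in the table, of which 0 held a CArG box and 1 a CRE. A match is only a description of the letters. Dusp5 and Fblim1 are no members of the list and were added after their values were seen, since both hold CArG boxes and moved in opposite directions. The stretches of Egr2 (chr20:21054392-21054691, minus strand), Dusp5 (chr1:262543524-262543823, plus strand), Ier2 (chr19:40399123-40399422, plus strand) and Maff (chr7:112792537-112792836, plus strand), which fell, and of Fblim1 (chr5:159196767-159197066, minus strand), which rose, run 5′ to 3′ with the motif in capitals. In Egr2, Dusp5 and Fblim1 the capitals mark CArG boxes, of which Dusp5 has 2 side by side, and in Ier2 and Maff the CRE.
Egr2: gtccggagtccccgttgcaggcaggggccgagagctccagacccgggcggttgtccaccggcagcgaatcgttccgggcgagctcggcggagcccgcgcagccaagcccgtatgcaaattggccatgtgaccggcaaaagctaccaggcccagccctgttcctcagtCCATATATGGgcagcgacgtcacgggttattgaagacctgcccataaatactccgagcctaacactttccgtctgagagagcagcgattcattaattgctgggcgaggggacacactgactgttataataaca
Dusp5: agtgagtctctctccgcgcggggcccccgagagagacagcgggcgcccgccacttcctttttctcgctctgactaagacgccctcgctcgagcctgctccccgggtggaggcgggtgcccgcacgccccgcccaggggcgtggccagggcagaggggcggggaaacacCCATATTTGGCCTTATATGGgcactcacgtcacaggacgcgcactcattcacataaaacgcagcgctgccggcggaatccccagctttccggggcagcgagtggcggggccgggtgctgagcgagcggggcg
Ier2: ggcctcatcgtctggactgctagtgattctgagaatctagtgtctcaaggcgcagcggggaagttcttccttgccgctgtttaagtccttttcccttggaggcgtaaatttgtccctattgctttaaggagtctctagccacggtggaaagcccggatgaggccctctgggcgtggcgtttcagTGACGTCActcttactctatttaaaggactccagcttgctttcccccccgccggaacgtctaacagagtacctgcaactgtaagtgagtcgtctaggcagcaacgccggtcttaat
Maff: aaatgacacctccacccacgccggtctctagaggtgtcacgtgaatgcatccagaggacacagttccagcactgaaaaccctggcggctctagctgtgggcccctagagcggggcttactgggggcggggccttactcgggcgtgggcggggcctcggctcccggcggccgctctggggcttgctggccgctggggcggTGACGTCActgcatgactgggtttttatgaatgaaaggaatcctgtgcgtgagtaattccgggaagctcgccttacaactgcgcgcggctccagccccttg
Fblim1: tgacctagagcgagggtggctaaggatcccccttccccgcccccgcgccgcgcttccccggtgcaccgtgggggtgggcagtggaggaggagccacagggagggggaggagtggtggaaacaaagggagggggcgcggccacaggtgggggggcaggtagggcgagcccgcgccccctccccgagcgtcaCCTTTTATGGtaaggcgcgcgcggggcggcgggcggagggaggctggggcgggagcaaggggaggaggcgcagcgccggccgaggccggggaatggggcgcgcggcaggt

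Other AP-1 and EGR family members fell less. Junb, which encodes a partner of FOS proteins, had intensities of 628.3, 811.8 and 819.1 at 2 h and of 317.8, 299.4 and 311.5 at 8 h, with no overlap, and fell 2.42-fold (limma adjusted p = 1.55e-06). Only 16.7% of the change in Junb had come by 4 h. Fos stood at 4194, 3394 and 3117 at 2 h and at 2036, 1344 and 1054 at 8 h, a 2.49-fold fall with no overlap (limma adjusted p = 0.00928). Egr1 fell 1.86-fold, from 6118 ± 213 to 3295 ± 203 (SD, n = 3, limma adjusted p = 3.38e-08), to a level whose difference from the control, a log2 change of -0.13, was not past the threshold (limma adjusted p = 0.141). The serum response factor gene Srf fell by 0.77 on the log2 scale, Zfp36, whose product destabilises AU-rich mRNAs, by 0.62, and Ier2 by 0.88 (limma adjusted p from 2.55e-06 to 0.00102). Maff, a small MAF transcription factor gene, was as bright at 4 h as at 2 h, with 278.2, 302.3 and 335.1 at 2 h, 331.8, 363.3 and 333.9 at 4 h and 158.8, 178.2 and 128.7 at 8 h, so its fall of 1.98-fold lay between 4 h and 8 h (limma adjusted p = 1.23e-05). Klf6 fell 1.43-fold with overlapping groups (82.52 to 102.8 at 2 h, 52.59 to 82.87 at 8 h, limma adjusted p = 0.0341). Its other tested probe sets fell too, but leaving out 2 h replicate 1 or 3 or 8 h replicate 2 or 3 ended its call (limma adjusted p = 0.0986, 0.113, 0.162 and 0.0803). The list's exceptions were Jun and Klf2, higher at 8 h by 0.55 and 0.79 on the log2 scale (limma adjusted p = 0.0086 and 1.16e-05). Egr4, at 1957 and 1920, differed by -0.03 (limma adjusted p = 0.783).

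**Figure D2:**
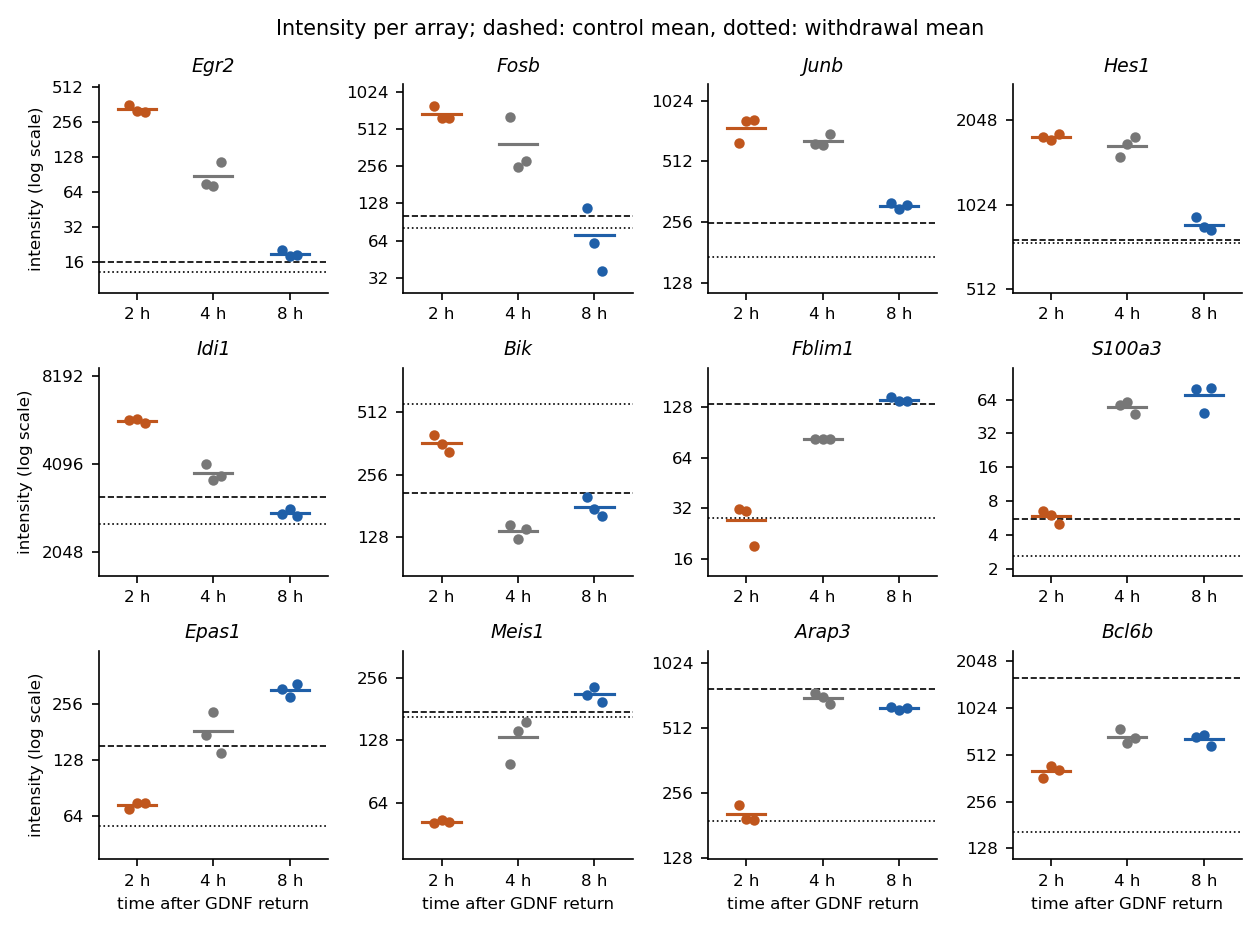
Intensity of 12 genes on each array at 2, 4 and 8 h of GDNF return (x axis), on logarithmic y axes that differ between panels; points are arrays, short bars group means, the dashed line the control mean and the dotted line the withdrawal mean. Egr2, Fosb and Junb fall from 2 h to 8 h, Bik and Arap3 have already passed their 8 h mean at 4 h, and Bcl6b stays below its control mean of 1588 at every time.

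Genes of the ERK feedback list, which ERK signalling is known to induce, went both ways. Of 11 tested members 4 were higher at 8 h and 2 lower, against 13% and 15.4% of all genes, with a median log2 change of 0.16. Dusp5, which encodes a nuclear phosphatase of ERK, fell 1.99-fold, from 315.6, 342.3 and 362.5 to 173.9, 180.8 and 157.9 (limma adjusted p = 0.000139), with no overlap. The Sprouty genes, whose products inhibit receptor tyrosine kinase signalling, moved in opposite directions. Spry2 fell 1.4-fold, from 1219 ± 73.9 to 872.9 ± 74.4, and Spry4 rose 1.33-fold, from 245.3 ± 14.7 to 325.7 ± 12.4 (SD, n = 3, limma adjusted p = 0.000112 and 0.00215). Dusp6, a cytoplasmic ERK phosphatase gene, stayed bright at 4300 and 4044, and its change of -0.09 on the log2 scale was not past the threshold (limma adjusted p = 0.107). Of the PEA3 family of ETS transcription factor genes, Etv5 rose 1.54-fold, from 457.7, 455 and 506.3 to 778.4, 668.3 and 741.4 (limma adjusted p = 0.00246), and Etv4, at 0.20, did not pass (limma adjusted p = 0.0874). The third member, Etv1, was 2.48-fold higher (51.77, 46.81 and 67.76 against 123.9, 145.5 and 138.9, limma adjusted p = 0.0159). Its withdrawal mean had been 136.2 ± 78.1, and its 2 h level was below that (log2 change -1.15, limma adjusted p = 0.031). The call of Etv1 was lost without 2 h replicate 1 or 2 or 8 h replicate 2 (limma adjusted p = 0.0501, 0.0578 and 0.0522). It was lost too with the mesenchymal marker covariate described with the S100 genes (log2 change 0.03, limma adjusted p = 0.958).

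Genes tied to GDNF in mouse spermatogonia rose in 4 of 10 tested members and fell in 2, Egr2 and Fos, against 13% and 15.4% of all genes, with a median log2 change of 0.07. Bcl6b, a transcriptional repressor gene needed for self-renewal in mouse, stood at 360.6, 431.9 and 407.1 at 2 h and at 664.8, 682.1 and 583.3 at 8 h. The arrays did not overlap, and the 1.61-fold rise (limma adjusted p = 0.000364) was seen in its 3 other probe sets as well. Its 4 h mean of 668.5 ± 71 did not differ from the 8 h mean past the threshold (limma adjusted p = 0.818), and at 8 h it was still below the control by 1.31 on the log2 scale (limma adjusted p = 2.46e-06). Ccnd2, the cyclin D2 gene, rose 1.8-fold, from 482.4 ± 14.1 to 866.6 ± 41.6 (limma adjusted p = 6.63e-05), and its 8 h level was not past the threshold against the control (limma adjusted p = 0.473). Cxcr4, the receptor gene of the chemokine CXCL12, rose 1.61-fold, from 51.64 ± 3.49 to 83.21 ± 8.05 (limma adjusted p = 0.00029), with its other 2 probe sets also higher. Its withdrawal mean had been 109.4 ± 4.18, so at 8 h it was still below withdrawal (log2 change -0.40, limma adjusted p = 0.0129). Without probe sets ending in _x_at 2 members of the list were higher, since those standing for Bcl6b and Cxcr4 end so and no other replaced them. Id4, at -0.16, Mycn, at -0.05, and Pou3f1, at -0.06 on the log2 scale, did not pass.

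Of 19 tested genes for GDNF family ligands, receptors and adaptors, 8 were higher at 8 h and 2 lower, against 13% and 15.4% of all genes, with a median log2 change of 0.17. Gfra2, the co-receptor gene for neurturin, rose 1.78-fold, from 84.26, 82.03 and 91.05 to 141.3, 154.6 and 163.6 (limma adjusted p = 0.000202). Gfra3, the co-receptor gene for artemin, was under 16 on every 2 h array and at 47.15, 34.94 and 23.12 at 8 h, a log2 change of 1.34 (limma adjusted p = 0.000127), or 2.1-fold with values under 16 set to 16. In Gfra2 and Gfra3 alike the groups did not overlap. Among signalling genes Nrtn, for neurturin itself, rose by 0.32, Akt1 by 0.21 and Shc1 by 0.17 on the log2 scale, while the RAS exchange factor gene Sos1 and the adaptor gene Frs2 fell by 0.35 and 0.19 (limma adjusted p from 0.00153 to 0.0345). The probe set of Ret with the highest mean rose 1.24-fold, from 2686, 2559 and 2645 to 3278, 3296 and 3225 (limma adjusted p = 0.000113). It passed through a lower level of 1932 ± 40.8 at 4 h. At 8 h it was below its withdrawal mean of 3779 ± 172 and its control mean of 4301 ± 235 (limma adjusted p = 0.00253 and 3.19e-05). Its remaining probe sets, which changed by -0.15 and -0.09 in log2 units, did not pass (limma adjusted p = 0.168 and 0.333), so the probe sets of Ret disagree. Another probe set of Sos1 was at 0 (limma adjusted p = 0.993) and another of Pik3cd at 0.07 (0.708), against 0.57 on the one that was called. For Src, both were near the same size, 0.34 and 0.37, and the second did not pass (limma adjusted p = 0.0711). Without 2 h replicate 1 or 8 h replicate 2 the list had 5 members higher. The call of Pik3cd was lost without 8 h replicate 2 (limma adjusted p = 0.0787), and that of Src without 2 h replicate 1 or 2 or 8 h replicate 1 or 3 (0.0855, 0.144, 0.134 and 0.0831).

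Among 12 genes of undifferentiated spermatogonia 5 were higher and 1 lower, against 13% and 15.4% of all genes, with a median of 0.16. Epcam, a surface marker of these cells, rose 1.28-fold, from 7918 ± 266 to 10090 ± 212 (SD, n = 3, limma adjusted p = 3.93e-05). The integrin beta 1 gene Itgb1 rose 1.26-fold, and Etv5, Bcl6b and Ret were the others. The member lower at 8 h was the transcription factor gene Sall4 (675.5 ± 12 against 558.6 ± 38.9, limma adjusted p = 0.0348), whose call was lost on leaving out any 2 h array or 8 h replicate 1 or 2 (limma adjusted p from 0.0651 to 0.139). Of 8 genes of differentiating and meiotic cells 2 were lower and 0 higher, beside the same shares. They were Kit, the receptor gene that marks differentiating spermatogonia, which fell 1.4-fold from 150 ± 4.71 to 108.1 ± 14.9, and the meiotic cohesin gene Smc1b, which fell 1.23-fold (limma adjusted p = 0.00763 and 0.00184). The meiotic genes Sycp1, Sycp2 and Sycp3 changed by 0.01, -0.09 and -0.03 on the log2 scale and did not pass.

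Sterol synthesis genes fell together. Of 19 tested members 13 were lower at 8 h and 0 higher, against 15.4% and 13% of all genes, with a median log2 change of -0.43. Idi1, which encodes isopentenyl diphosphate isomerase, stood at 5818, 5841 and 5665 at 2 h, at 4104, 3607 and 3726 at 4 h and at 2766, 2880 and 2728 at 8 h. The times did not overlap, and the fall of 2.07-fold had the smallest adjusted p of the 30 leading genes (log2 change -1.05 ± 0.047 SE, limma adjusted p = 2.51e-09). The desaturase gene Sc5d fell 1.74-fold, from 402.2 ± 17.2 to 230.9 ± 6.43, and its 2 other probe sets fell likewise. Insig1, which encodes the endoplasmic reticulum anchor of the SREBP escort protein, and the squalene epoxidase gene Sqle both fell 1.72-fold, from 2713 ± 89.8 to 1575 ± 19.5 and from 2279 ± 17.1 to 1328 ± 86.8. Msmo1 fell 1.63-fold (limma adjusted p of these 4 genes from 2.55e-07 to 9.89e-06). Squalene synthase Fdft1 fell by 0.59, Cyp51 by 0.54 and Hsd17b7 by 0.53 on the log2 scale. The transcription factor gene Srebf2, at -0.09, and Nsdhl, at 0.03, did not pass (limma adjusted p = 0.469 and 0.743). The list mean in log2 units was 9.371 ± 0.013 in the control and 9.233 ± 0.039 after withdrawal. It was 9.597 ± 0.015 at 2 h and 9.141 ± 0.026 at 8 h (SD, n = 3).

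Mitosis genes were slightly lower. Of 26 tested members 13 were lower at 8 h and 0 higher, against 15.4% and 13% of all genes, with a median log2 change of -0.21 and none beyond -0.40. The spindle midzone gene Prc1 fell 1.32-fold, from 1269, 1234 and 1206 to 988.4, 882.8 and 943 (limma adjusted p = 6.8e-05). Cdca3 fell 1.31-fold, Nusap1 1.3-fold, Cenpe 1.26-fold and Cdca8 1.24-fold. The mitotic cyclin gene Ccnb1 fell by 0.26, the checkpoint kinase gene Bub1b by 0.28 and the proliferation marker gene Mki67 by 0.24 on the log2 scale, while Cdk1, at -0.04, did not pass (limma adjusted p = 0.515). With the mesenchymal marker covariate described with the S100 genes 6 were lower, in a fit that called 940 probe sets lower against 2283 without it. The arrays of the list mean did not overlap, at 10.098 to 10.153 at 2 h and 9.905 to 9.924 at 8 h. Genes of DNA replication were split, with 3 of 32 higher and 6 lower and a median of 0, a share of 28.4% of all genes being called in either direction. Among them the origin genes Orc1 and Cdt1 rose 1.24- and 1.17-fold and the thymidylate synthase gene Tyms fell 1.26-fold. The replication factor gene Gins3 fell 1.19-fold with overlapping groups (limma adjusted p = 0.0184), a call lost without 2 h replicate 1 or 2 or 8 h replicate 1 or 3 (limma adjusted p from 0.0603 to 0.0823). The count of lower replication genes was 3 without 2 h replicate 1, and that of higher ones 5 under median centring or quantile normalization.

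Of 13 G1 cyclins and CDK inhibitors 1 (Ccnd2) was higher and 3 inhibitors were lower, against 13% and 15.4% of all genes: Cdkn1c 1.48-fold (167.8 ± 6.29 to 113.6 ± 5.6), Cdkn2d 1.32-fold and Cdkn1a 1.2-fold (limma adjusted p = 0.00017, 0.00132 and 0.0199). Another probe set of Cdkn2d, at -0.15, and one of Cdkn1a, at -0.25, did not pass (limma adjusted p = 0.214 and 0.675), and the call of Cdkn1a was lost without 2 h replicate 3 or 8 h replicate 2 or 3 (limma adjusted p = 0.0703, 0.073 and 0.0833). FOXO target genes, which rise when AKT signalling is low, had 10 of 23 members lower at 8 h and 1 higher, against 15.4% and 13% of all genes, with a median of -0.14. Foxo3 itself fell 1.78-fold, from 417.1, 472.9 and 374.1 to 245.7, 237 and 226.1 (limma adjusted p = 4.67e-06). The catalase gene Cat fell 1.42-fold, the insulin-like growth factor receptor gene Igf1r by 0.33 and Txnip by 0.26 on the log2 scale. Cited2 was the member that rose, by 0.41. After withdrawal Foxo3 had been higher than in the control (log2 change 1.55, limma adjusted p = 5.11e-09). Trib1, also among the members lower at 8 h, had been lower (-1.85, 0.000128), and Cat was not past the threshold (0.14, 0.221). Klf6 and Bbc3, lower as well, are also members of the immediate early and BCL2 lists. Irs2, an insulin receptor substrate gene, fell 1.4-fold with overlapping groups, and its call was lost without 2 h replicate 1 or 3 or either 8 h replicate 2 or 3 (limma adjusted p from 0.0699 to 0.162).

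The BCL2 family, which governs apoptosis, had 4 of 9 members lower and 1 higher, against 15.4% and 13% of all genes. Bik, a pro-apoptotic BH3-only gene, stood at 399.3, 360.6 and 330.9 at 2 h, at 146.8, 125.2 and 140.5 at 4 h and at 201, 176.2 and 161.5 at 8 h. The fall of 2.03-fold from 2 h to 8 h (limma adjusted p = 3.38e-06) was thus past its 8 h level at 4 h, at 138% of the change. Bcl2l2, a pro-survival gene, rose 1.51-fold, from 245 ± 21.7 to 368.9 ± 21.9 (limma adjusted p = 0.000146). The pro-apoptotic genes Bbc3 and Bid fell 1.27- and 1.14-fold and the pro-survival gene Mcl1 1.17-fold (limma adjusted p = 0.0136, 0.0154 and 0.00228). The call of Bbc3 was lost without 2 h replicate 3 (limma adjusted p = 0.0692) and that of Bid without 2 h replicate 2 or 8 h replicate 3 (0.0667 and 0.0574). The other probe sets of Bid and Mcl1, at -0.19 and -0.12, did not pass (limma adjusted p = 0.0698 and 0.0669).

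In the Notch list 2 of 8 genes fell and 2 rose, against 15.4% and 13% of all genes, which is about 1 gene each way. Hes1, a repressor gene and a Notch target that growth factors can also induce, stood at 1786, 1743 and 1823 at 2 h and still at 1512, 1674 and 1782 at 4 h, then at 924.6, 854.5 and 829.4 at 8 h. It fell 2.05-fold (limma adjusted p = 7.65e-08), with 10.6% of the change reached at 4 h. Hes6 fell 1.5-fold, while Hey1 rose 1.44-fold, from 77.26 ± 6.41 to 110.8 ± 6.82 (limma adjusted p = 0.00481 and 0.0087). Hey1 had stood at 186.7 ± 20.4 after withdrawal, so its 8 h level was below withdrawal (log2 change -0.75, limma adjusted p = 0.000724). Nrarp rose 1.19-fold on one probe set (limma adjusted p = 0.0458) and was at -0.14 on another (0.327), and the first call was lost without 2 h replicate 2 or 3 or 8 h replicate 1 or 2 (0.102, 0.152, 0.13 and 0.128). In the BMP and TGF-beta response 4 of 14 genes fell and 2 rose, beside the same shares. Id1, an inhibitor of basic helix-loop-helix factors, stood at 552.2, 643.7 and 698.6 at 2 h and at 310.9, 335.8 and 294.4 at 8 h, a 2.01-fold fall (limma adjusted p = 8.68e-07), of which 6.19% had come by 4 h. The inhibitor gene Smad7 fell 1.67-fold, and Skil, a repressor of SMAD proteins, 1.28-fold. The receptor gene Acvr1 rose 1.77-fold (limma adjusted p = 0.00136), while Tgfb1 rose 1.16-fold, a call lost on leaving out any of the 6 arrays (limma adjusted p from 0.0578 to 0.136), so that the list had 1 higher member without any 1 of them.

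The 15 largest rises were taken among genes whose groups did not overlap. Fblim1, which encodes a filamin-binding protein of cell-matrix adhesions, stood at 31.72, 30.88 and 18.93 at 2 h and at 147, 139.8 and 138.7 at 8 h. It rose 5.36-fold (log2 change 2.42 ± 0.18 SE, limma adjusted p = 3.38e-07), from near its withdrawal mean of 27.86 ± 6.27 to near its control mean of 133.3 ± 12. Epas1, the gene of the hypoxia-inducible factor HIF-2 alpha, rose 4.15-fold, from 69.9, 75.67 and 75.28 to 308.3, 279.6 and 329.6 (limma adjusted p = 1.17e-07), and at 8 h was above the control by 1.00 on the log2 scale (limma adjusted p = 0.000299). Gpd1l1, related by name to glycerol-3-phosphate dehydrogenase, rose 4.14-fold, from 43.9 ± 6.19 to 181 ± 14.6 (limma adjusted p = 4.57e-08). With 26.6% of the change at 4 h it was the slowest of the 15. Arap3, a GTPase-activating protein gene whose product binds PI3K lipids, rose 3.11-fold, from 225.1, 193.1 and 191.6 to 637.8, 619.6 and 634.8 (limma adjusted p = 3.48e-08), and was already at 706 ± 41.7 at 4 h. Upk1b, a uroplakin gene, rose 3.44-fold and Selenom, a selenoprotein gene, 2.86-fold, both from levels near withdrawal to levels not past the threshold against the control (limma adjusted p = 0.0893 and 0.438).

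Myh2 and S100a3 were low in the control and rose well above it. Myh2 stood at 11, 8.089 and 13.81 at 2 h and at 126.4, 76.22 and 101.7 at 8 h, against 8.404 ± 0.33 in the control. Since the 2 h arrays were under 16, the rise of 9.28-fold (limma adjusted p = 6.74e-08) was 6.21-fold with values under 16 set to 16. S100a3 stood at 6.524, 6.098 and 5.019 at 2 h and at 78.89, 48.48 and 81.75 at 8 h, an 11.6-fold rise (limma adjusted p = 6.68e-09), or 4.24-fold with that floor. Most of both changes, 90.3% and 91.5%, had come by 4 h. Iqsec3, an exchange factor gene for ARF GTPases, peaked at 4 h, with 27.52, 20.54 and 27.09 at 2 h, 144.6, 119.6 and 137.2 at 4 h and 87.24, 80.26 and 73.74 at 8 h. Its rise from 2 h to 8 h was 3.23-fold (limma adjusted p = 1.35e-06), and it fell from 4 h to 8 h by 0.73 on the log2 scale (limma adjusted p = 0.00505). Of the 15 rises 5 were called above the control at 8 h and 0 below, a comparison for which the share over all genes was not counted. It uses the same 8 h arrays by which the 15 were chosen, which favours calls above the control. The counts are therefore only a description.

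The remaining large falls were of less related genes. Rasl11b, a small GTPase gene, fell 2.09-fold, from 74.16, 72.59 and 76.15 to 38.37, 35.51 and 33.08 (limma adjusted p = 4.04e-05). Crip2, a LIM-domain protein gene, fell 2.1-fold, from 61.44, 50.05 and 59.19 to 32.46, 27.17 and 22.42, with 8.89% of the change at 4 h (limma adjusted p = 0.000109). Epb41l5, a FERM-domain protein gene, fell from 36.54 ± 2.95 to 11.21 ± 0.266, 2.28-fold with values under 16 set to 16 (limma adjusted p = 9.04e-07). The pseudokinase gene Trib1 fell 2.13-fold, from 50.87, 53.25 and 44.1 to 30.15, 15.2 and 26.9 (limma adjusted p = 0.00596), after a higher 4 h level of 63.32 ± 3.57. Gatc and Zcchc18 fell 2.35- and 2.09-fold. For Cep15 (2.15-fold) another probe set was at 0.03 (limma adjusted p = 0.835). For Fam120b (2.02-fold) one other probe set rose by 0.96 (limma adjusted p = 0.000405) and one was at -0.14 (0.585), so the direction of Fam120b depends on the probe set.

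Genes of S100 proteins and annexins, which bind calcium and membranes, were higher in 9 of 12 members and lower in 0, against 13% and 15.4% of all genes, with a median of 0.53. Besides S100a3, Anxa3 rose by 1.88 on the log2 scale, from 12.71, 9.523 and 10.05 to 38, 34.92 and 45.67 (limma adjusted p = 5.69e-07), or 2.46-fold with values under 16 set to 16. S100a4, S100a6 and S100a11 rose 2.02-, 1.99- and 1.86-fold, from 1752 ± 199, 3665 ± 355 and 245.8 ± 17.4 to 3533 ± 405, 7288 ± 319 and 458.2 ± 39.4 (limma adjusted p = 0.0198, 0.00323 and 0.00646). Anxa2 and Anxa5 rose by 0.48 and 0.42. The call of S100a4 was lost without 2 h replicate 1 or 2 or 8 h replicate 2 (limma adjusted p = 0.0683, 0.054 and 0.0731).

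Markers of fibroblast-type mesenchymal cells moved the same way. Of 14 tested markers, out of 23 on the array, 11 were higher at 8 h and 0 lower, against 13% and 15.4% of all genes, with a median of 0.68. Their mean log2 intensity was 7.561 to 7.817 on the 2 h arrays and 8.275 to 8.513 on the 8 h arrays. The 8 h mean of 8.391 ± 0.119 was close to the control mean of 8.225 ± 0.222 and the withdrawal mean of 8.121 ± 0.428 (SD, n = 3), so the 2 h arrays, at 7.684 ± 0.128, stood low, although the lowest withdrawal array, at 7.631, lay among them. Pdgfra, a receptor gene of such cells, rose 2.45-fold, from 222.2, 233.8 and 253.1 to 550, 654.5 and 537.2 (limma adjusted p = 0.00198), the collagen gene Col1a2 2.15-fold and the intermediate filament gene Vim 1.87-fold (limma adjusted p = 0.00929 and 0.0056). Mmp2 and Dcn, for a matrix protease and a matrix proteoglycan, were 2.01- and 1.87-fold higher, and both calls were lost without 2 h replicate 1 (limma adjusted p = 0.0556 and 0.143) or 8 h replicate 2 (0.0524 and 0.101). That of Dcn was also lost without 2 h replicate 2 or 8 h replicate 1 or 3 (0.0806, 0.0821 and 0.0802). The count of 11 was 6 without 2 h replicate 1 or 8 h replicate 2 and 7 without 2 h replicate 2. In these bulk samples a change in the number of such cells and in their RNA per cell cannot be told apart. Of 5 Sertoli cell markers Clu was higher, by 0.11 (limma adjusted p = 0.0418), a call lost on leaving out any of the 6 arrays (limma adjusted p from 0.0594 to 0.133). Acta2 of peritubular cells and Cd3e of T cells, the only tested markers of their lists, did not pass (limma adjusted p = 0.647 and 0.657), while another probe set of Cd3e fell by 0.28 (0.0137).

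**Figure D3:**
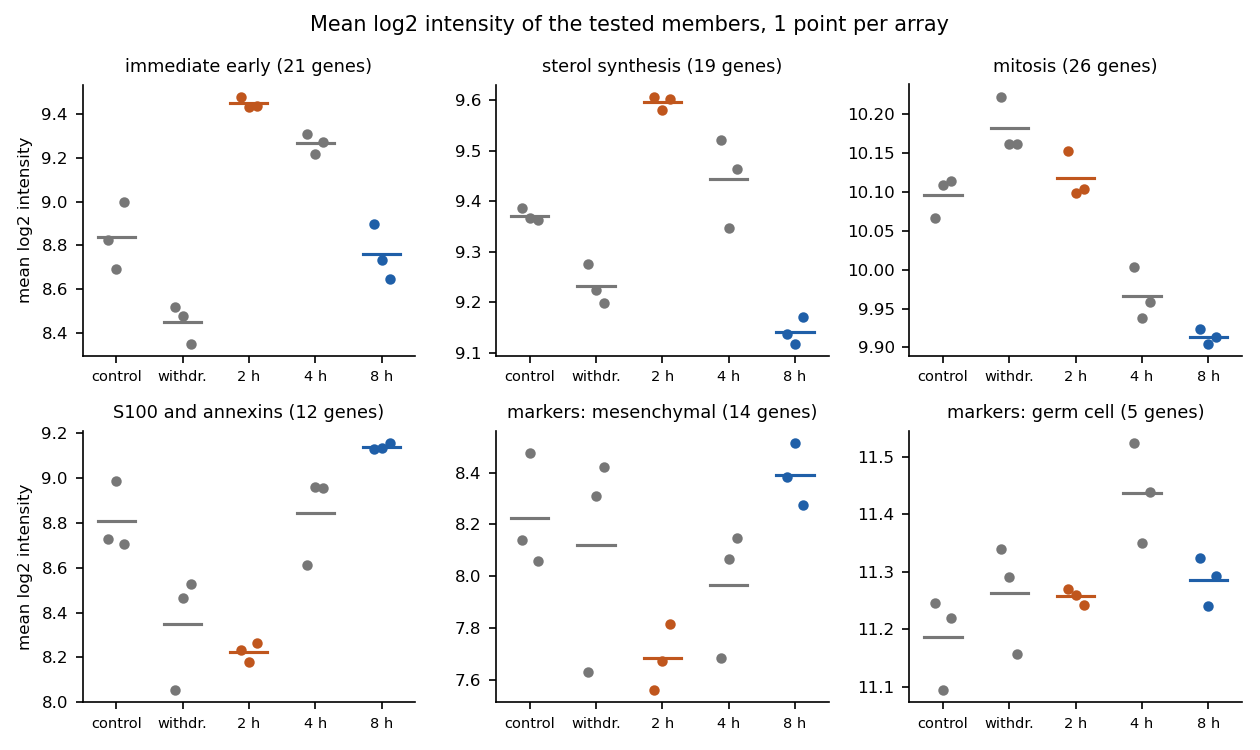
Mean log2 intensity of the tested members of 6 gene lists (y axes, which differ in range) on each of the 15 arrays by group (x axis); points are arrays and bars group means, with 2 h in orange and 8 h in blue. Immediate early, sterol synthesis and mitosis means are lower at 8 h than at 2 h and those of S100 genes and mesenchymal markers higher, with no overlap, while germ cell markers, at 11.257 and 11.285, overlap.

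Because the marker mean differed between the groups, the fit was repeated with it as a covariate, an alternative chosen after the data were seen. Meis1, Hoxa5 and Zfhx4, homeobox transcription factor genes among the 15 largest rises, followed the marker mean across arrays within groups with log2 slopes of 1.34, 1.68 and 1.51, Emp3 and Angptl4 with 1.05 and 1.44, and Tkt with 0.92 (limma adjusted p of the slopes from 9.04e-06 to 0.034). The marker mean varied most within withdrawal (SD 0.428), the 4 h group (0.249) and the control (0.222). It varied less at 2 h (0.128) and 8 h (0.119). The slopes, and the changes adjusted by them, thus rest largely on arrays outside the comparison. Meis1 stood at 51.25, 52.83 and 51.49 at 2 h and at 212.4, 230 and 196.3 at 8 h, a 4.1-fold rise (limma adjusted p = 6.67e-05), which was 2.12-fold with the covariate. Hoxa5 rose 3.28-fold, from 18.99 ± 4.06 to 61.26 ± 4, and was not called with the covariate (1.44-fold, limma adjusted p = 0.229). Zfhx4 rose 3.04-fold, Emp3, a membrane protein gene, 3.37-fold, Angptl4, which encodes an inhibitor of lipoprotein lipase, 3.29-fold and the transketolase gene Tkt 3.84-fold. With the covariate these were 1.45-, 2.01-, 1.63- and 2.44-fold. After withdrawal Meis1, Hoxa5, Zfhx4 and Angptl4 had means of 165.9 ± 65.3, 60.58 ± 32.3, 126.8 ± 48.8 and 137.3 ± 59.6. All were lower at 2 h than after withdrawal (limma adjusted p from 0.000597 to 0.0161). None differed past the threshold between 8 h and withdrawal (limma adjusted p from 0.0759 to 0.782). Their rises thus started from 2 h levels below withdrawal. For Fblim1, Epas1, Gpd1l1, Arap3 and Upk1b the rises were 6.47-, 4.43-, 4.6-, 3.68- and 3.44-fold with the covariate, as large as or larger than without it. S100a3 also kept its call (limma adjusted p = 1.94e-07), but its 2 h arrays lay under 16, so no fold is given. Among the falls Fos (1.21-fold, limma adjusted p = 0.634) and Trib1 (1.26-fold, 0.457) were no longer called, and Fosb was 3.75-fold lower, while Egr2, at 25.5-fold, Junb, at 2.8-fold, and Idi1, at 1.96-fold, kept their calls.

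With the covariate fewer of the 15856 probe sets were called, 1152 higher and 940 lower against 1874 and 2283 without it. The list counts stand beside that smaller total. In that fit 12 sterol synthesis genes, 10 immediate early genes, 6 mitosis genes and 6 FOXO targets were lower. Of the S100 and annexin genes 4 were higher and 1 lower, and 1 mesenchymal marker was higher. The receptor and adaptor list then had 5 members higher and 0 lower, and 2 BCL2 family genes and 1 replication gene were lower. In the ATF4, plasminogen, EGF, BMP and TGF-beta and Wnt lists 0 were higher, and of differentiating genes 0 were lower. The called S100 genes that did not pass with it had smaller changes, with log2 changes of -0.19 for S100a4, 0.16 for S100a6 and 0.11 for S100a11 (limma adjusted p = 0.0693, 0.325 and 0.675). Other calls were lost while the size barely moved. With and without the covariate Tyms was at -0.32 and -0.33, Cenpe at -0.33 and -0.34, Hey1 at 0.46 and 0.52 and Bbc3 at -0.39 and -0.34 (limma adjusted p with it 0.0941, 0.0716, 0.135 and 0.0804). The log2 changes of Acvr1, Smad7, Kit, Smc1b, Cdca8, Sos1 and Itgb1 with it were 0.54, -0.55, -0.34, -0.15, -0.17, -0.24 and 0.19, none past the threshold (limma adjusted p from 0.103 to 0.225). Those of Atf5, Sesn2, Aldoa, Hspa1a and Bid were 0.30, -0.19, 0.26, -0.28 and -0.13 (limma adjusted p from 0.0849 to 0.453). Etv5, Bcl6b, Ccnd2, Cxcr4, Epcam, Ret, Gfra2 and Gfra3 kept their calls, at log2 changes of 0.85, 0.81, 0.56, 0.76, 0.44, 0.42, 0.49 and 1.27. Since the mean is made of the marker genes, their own change is largely absorbed by it. As a measure of RNA integrity, the GAPDH probe set of the 3′ end exceeded that of the 5′ end in log2 units by -0.266 ± 0.011 at 2 h and -0.156 ± 0.021 at 8 h, and that of beta-actin by 2.037 ± 0.075 and 2.058 ± 0.093, and the hybridisation spikes had a mean log2 intensity of 10.24 ± 0.144 and 10.659 ± 0.079 (SD, n = 3). Their part in the results was not tested.

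**Figure D4:**
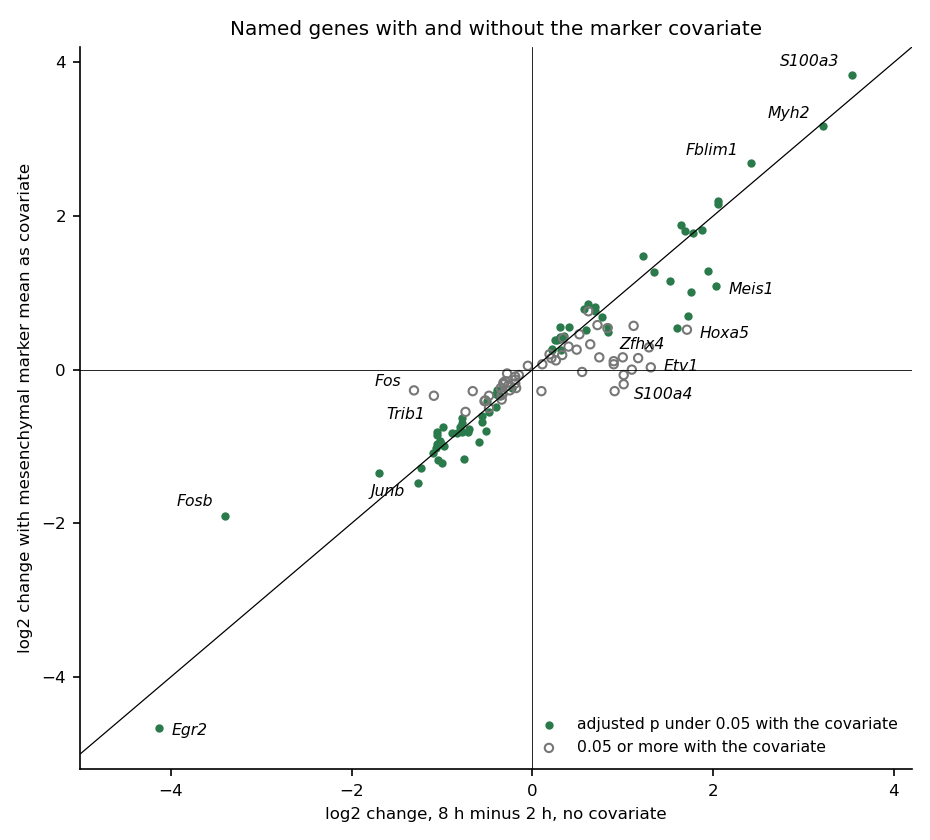
Log2 change from 2 h to 8 h of the 124 named genes without (x axis) and with (y axis) the mesenchymal marker mean as a covariate; filled green points have a limma adjusted p under 0.05 with the covariate, open points do not, and the diagonal marks equal values. Egr2 and Fblim1 lie near the diagonal, Fosb and Meis1 nearer to 0 than it, and Fos, at -0.27, and Hoxa5, at 0.52, are no longer called.

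Of 8 HOX and TALE genes 3 were higher and 0 lower, against 13% and 15.4% of all genes, Meis1, Hoxa5 and the partner gene Pbx2, which rose 1.71-fold from 195.6 ± 11.7 to 334.3 ± 15.3 (limma adjusted p = 0.000475). In plasminogen activation and adhesion 3 of 11 genes were higher and 1 lower, beside the same shares. The higher count was 5 with only the 6 arrays, 6 with array weights and 0 with the covariate, and 2 were lower without 2 h replicate 3 or 8 h replicate 1 or 3. Plaur, the urokinase receptor gene, rose 2.26-fold from 91.92, 108 and 118.3 to 238.8, 243.8 and 231.4 (limma adjusted p = 0.00661), with a higher 4 h mean of 350.2 ± 64, and with the covariate its log2 change was 0.15 (limma adjusted p = 0.675). Sfn, the 14-3-3 sigma gene, fell 1.72-fold, from 255.8, 257.2 and 259.5 to 153.4, 143.5 and 153.4 (limma adjusted p = 1.48e-05), having stood at 635.9 ± 46.8 at 4 h. In the Wnt list 2 of 11 genes were higher and 1 lower, no larger a share in all than the 28.4% of all genes. The transcription factor gene Tcf7l2 rose 2.18-fold, from 40.41, 41.59 and 29.78 to 84.68, 87.13 and 69.99 (limma adjusted p = 0.00129), with a 4 h mean of 246.6 ± 27. Its relative Tcf7l1 rose 1.56-fold on one probe set and was at 0.24 on another (limma adjusted p = 0.00283 and 0.334), and neither Tcf7l2 nor Tcf7l1 was called with the covariate (limma adjusted p = 0.139 and 0.217). Sfrp1, a secreted Wnt antagonist gene, fell 1.63-fold (limma adjusted p = 0.00466).

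Of 20 glycolysis and hypoxia genes 3 rose and 3 fell, against 13% and 15.4% of all genes. The glucose transporter gene Slc2a3 rose 2.34-fold, from 125.5, 158.8 and 150.9 to 375.4, 311.8 and 327.5 (limma adjusted p = 1.28e-05), and the aldolase gene Aldoa 1.4-fold. Vegfa, the angiogenic growth factor gene, fell 1.7-fold, from 522.3, 645.4 and 719.3 to 361.6, 388.9 and 353.9 (limma adjusted p = 0.00046), and the triose phosphate isomerase gene Tpi1 fell 1.47-fold. The other probe set of Vegfa fell too, by 1.10 on the log2 scale. In the ATF4 amino acid response 5 of 21 genes rose and 4 fell, beside the same shares, and 0 were higher with the covariate. Ddit3 fell 1.43-fold and Sesn2 1.25-fold, and Atf4 by 0.18 on the log2 scale, while Atf5 rose 1.32-fold (limma adjusted p from 0.002 to 0.00903). Chac1 had stood at 48.28 ± 3.61 after withdrawal, above its 2 h and 8 h levels (limma adjusted p = 7.63e-05 and 0.00656). The calls of Chac1 (18.95 ± 3.68 to 29.12 ± 5.02, limma adjusted p = 0.0172) and Cebpb (657.1 ± 111 to 953 ± 91.5, 0.0189) were lost without 2 h replicate 1 (0.0578 and 0.0737), as were that of Chac1 without 2 h replicate 3 or 8 h replicate 1 (0.0782 and 0.0803) and that of Cebpb without 2 h replicate 2 or 8 h replicate 2 (0.0771 and 0.0815), and the count of risers fell to 1 without it, 3 without 2 h replicate 2, and 2 without 2 h replicate 3 or 8 h replicate 1 or 2. Of 37 ribosome biogenesis genes, beside the same shares, 31 were not called, 4 were higher and 2 lower, with changes from -0.19 to 0.30. There 2 were higher without 2 h replicate 1 or 3, 1 without 2 h replicate 2 or 8 h replicate 1, and 1 was lower without any 2 h array or 8 h replicate 2 or 3. Of 14 heat shock genes 2 rose and 2 fell, again near these shares, among them Chordc1 (1.25-fold up) and Hspa1a (1.58-fold down, limma adjusted p = 0.000224 and 0.0115), the latter not called without 8 h replicate 2 or 3 (0.06 and 0.054). The list had 1 higher member without any 2 h array or 8 h replicate 1 or 2, and 1 lower member without 2 h replicate 1 and 0 without 8 h replicate 2 or 3. Of 6 EGF family and receptor genes, against 13% of all genes, 2 rose and with the covariate 0, the receptor inhibitor gene Errfi1 1.2-fold and Lrig1 1.14-fold (limma adjusted p = 0.00445 and 0.00984), Lrig1 not without 8 h replicate 3 (0.051) and neither with the covariate (0.307 and 0.0861), while the ligand gene Hbegf, at -0.70, did not pass (0.0873).

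**Figure D5:**
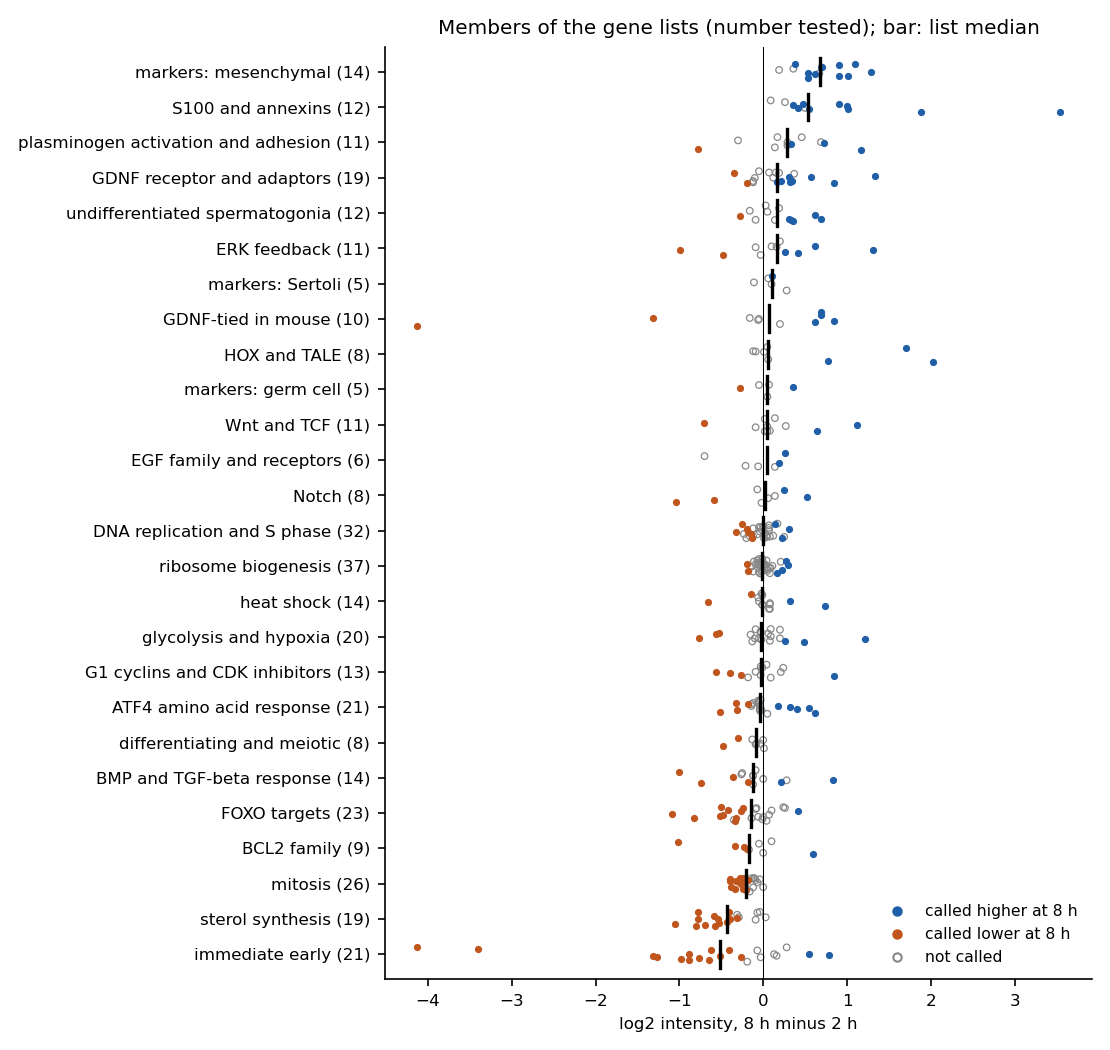
Log2 change from 2 h to 8 h (x axis) of the tested members of each gene list with more than 1 tested member (y axis, number tested in brackets), ordered by the list median (black bar). Blue points are called higher, orange points called lower and open points not called; immediate early and sterol synthesis genes have the lowest medians, -0.52 and -0.43, and mesenchymal markers and S100 genes the highest, 0.68 and 0.53.

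The 4 h arrays show how far each change had gone. Of the genes called higher at 8 h, 73.6% had a 4 h mean between those of 2 h and 8 h, and of those called lower 78.2%, against 45.6% of all tested genes. The median share of the log2 change reached at 4 h was 61.3% for the rises and 52.7% for the falls. Among the 15 largest rises 13 had an intermediate 4 h mean, with a median share of 64.3%, and 14 were nearer their 8 h level. Among the 15 largest falls 13 were intermediate as well, with a median share of 36.5%, and 10 were nearer their 2 h level. These shares use the same 2 h and 8 h arrays as the calls and are descriptions.

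Withdrawal against control shares no array with 8 h against 2 h. Both use 1 estimate of spread per probe set from the same fit, so a low spread favours a call in both. Against withdrawal 75.4% of all genes were not called, 63.3% of those higher at 8 h and 67.3% of those lower. Over all genes 10.8% were lower and 13.8% higher after withdrawal. Of the 1172 genes higher at 8 h than at 2 h, 29.7% had been lower and 7% higher after withdrawal. Of the 1387 genes lower at 8 h, 10.5% had been lower and 22.3% higher. Read the other way, of 973 genes lower after withdrawal 35.8% were higher and 14.9% lower at 8 h than at 2 h, and of 1238 genes higher after withdrawal 6.62% and 25% were. Among the 15 largest rises 9 had been lower after withdrawal and 0 higher, Arap3, Fblim1, Selenom, Upk1b, Epas1 and Gpd1l1 among them, with log2 changes of -2.02, -2.28, -1.80, -1.60, -1.44 and -1.35 (limma adjusted p from 2.26e-09 to 3.76e-06). Of the 15 largest falls 4 had been lower (Junb, Trib1, Rasl11b and Idi1) and 3 higher. The 3 were Bik, Crip2 and Zcchc18, at 1.42, 1.20 and 0.72, while for Egr2, Fosb, Fos and Hes1 withdrawal against control was not past the threshold (limma adjusted p from 0.317 to 0.751). Set beside each other, 10 of these 15 were higher at 2 h than after withdrawal and 2 lower, a comparison that shares the 2 h arrays. Of the 15 largest rises 1 was higher at 2 h than after withdrawal and 5 were lower. The share over all genes was not counted for this comparison. The falls were chosen for high and the rises for low 2 h values, which favours such counts. They are therefore only descriptions.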

How the data were processed

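The study used 15 one-colour arrays for 5 groups of 3 cultures. The authors deposited probe set intensities, linear as read from the values; GCRMA and Partek 6.3 were used per the submitters' processing notes, which name them with no role, order or settings. Low intensities depend on the background estimate. Here log2 was taken without renormalizing. After removal of 57 control probe sets, those with a log2 value of 4 or more (intensity 16) on 3 or more of the 15 arrays were tested, 51% of all. Of the probe sets 20826 had 1 gene symbol, 436 several and 9780 none; names came from the platform annotation, updated through a RefSeq gene table of GRCr8 for 20758 of them. The probe set with the highest mean stood for a gene.

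The model (limma 3.58.1, R 4.3.3, lmFit and eBayes with trend) was fitted to the 15 arrays together, with 10 residual degrees of freedom before moderation. P-values are two-sided, adjusted by Benjamini-Hochberg within each comparison over all tested probe sets. Each SD is taken across a group's 3 arrays. Named genes are the top 15 risers and top 15 fallers that were called with no overlap, ranked with values under 16 set to 16 and without symbols that are only locus numbers; up to 5 called members with the largest change of each of 28 gene lists, or 2 as values where none was called; and Bcl6b, Ret, Etv5, Fos, Egr1 and Ccnd2. Further list members are given as values to describe a list and were chosen after their values were seen. Other probe sets of a named gene are given where the call or direction differs. The comparison, lists and rules were chosen with earlier results of these data known. Alternatives were other filters, a pseudocount or floor, centring, quantile normalization, no trend, only the 6 arrays, array weights, the replicate number as a block, no probe sets ending in _x_at, each array left out, and, after the data were seen, a mesenchymal marker covariate. The counts against withdrawal were also added then. Between 2 h and 8 h, samples with the same replicate number did not deviate together (correlations of 0.048, -0.028 and -0.022). The steps were tested on simulated data.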

Additional observations from a re-analysis of the deposited data

Results flagged for a closer look

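Some control probe sets, which the comparison does not use, stood above every control array. The 5S ribosomal RNA probe set had a mean intensity of 1682 ± 28.4 at 2 h, against 1263 ± 58.4 in the control and 1258 ± 29.8 at 8 h (SD, n = 3). At 8 h the beta-actin probe sets of the 3′, 5′ and middle regions had means of 20870 ± 656, 5013 ± 173 and 7731 ± 164, against 18520 ± 833, 4655 ± 129 and 7210 ± 91.8 in the control and 18520 ± 1010, 4527 ± 468 and 7010 ± 347 at 2 h. The rat control probe set ratb1 stood at 292.4 ± 17.1 at 8 h, against 137.7 ± 10.1 in the control and 135.5 ± 21.5 at 2 h. None of these differences was tested.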

How the results depend on the processing

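Of 122 named genes with a call, 54 lost it under at least 1 of 18 alternatives: 25 on leaving out an array and 50 with the mesenchymal marker covariate, 29 of them with no other. Of 2221 pairs of a named gene and an alternative 2055 kept direction and call, 162 lost the call, 0 gained one and 4 changed sign. The 30 leading genes kept their calls on leaving out any of the 6 arrays. They had been chosen on these arrays as large, called changes with no overlap, which favours this. Of all 2559 called genes 1835 to 1976 kept their calls on leaving out 1 array. Against 4157 probe sets called (1874 higher, 2283 lower), leaving out 1 array gave 3015 to 3355 (1368 to 1527 higher and 1630 to 1936 lower). With the mesenchymal marker covariate, chosen after the data were seen, 2092 were called, 1152 higher and 940 lower, and the values that changed sign were those of Cebpb (-0.03), S100a4 (-0.19), Mmp2 (-0.07) and Dcn (-0.28). The share of called genes with a 4 h mean between those of 2 h and 8 h was 76.1%, and it was 78.1% without the low-value filter, 74% with only the 6 arrays, 73.7% with array weights and 78.2% to 79.4% on leaving out 1 array. With the replicate block 4315 probe sets were called, 1956 higher and 2359 lower. The labels state no pairing by replicate number, and 2 h and 8 h arrays of the same number did not deviate together, so this is only a check. The other groups were not compared in this way. Centring on the median moved the share of calls that were higher from 45.1% to 49.7%. With the stricter filter 27 of the 30 leading genes were tested. Of the gene list counts, that of mesenchymal markers was 6 of 14 without the low-value filter, and many fell with the covariate, as given with the covariate fit.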
